A study of Mus musculus with 6 samples.

Results

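Calcineurin and NFAT genes were followed in RNA-seq of mouse osteoblast cultures treated with verapamil, which blocks L-type calcium channels. The 10 genes were chosen by name: the catalytic subunits Ppp3ca and Ppp3cb, the regulatory subunit Ppp3r1, the NFAT factors Nfatc1, Nfatc2, Nfatc3, Nfatc4 and Nfat5, and the regulators Rcan1 and Rcan2. All 10 were among the 17491 genes of the count table, and all 10 passed the filter on low counts that left 13366 genes for testing. The 3 verapamil libraries and the 3 control libraries came from wild-type marrow stromal cells of mouse tibia and femur, kept for 7 days in osteogenic medium that contained ascorbic acid, β-glycerophosphate and dexamethasone. Both groups shared this medium, and verapamil was the labelled difference. The labels give no verapamil dose, length of exposure, vehicle, mouse strain, sex or age. Nothing in them tells whether the replicates were separate animals or cultures, so the p-values cover only how much these libraries varied, which may be technical.

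Calcineurin is a phosphatase that is switched on by calcium and calmodulin. It removes phosphates from the factors NFATc1 to NFATc4, which then enter the nucleus and act on transcription, often together with AP-1. Nfat5 encodes the family member that responds to osmotic stress and lacks the calcineurin-binding region. RCAN proteins bind calcineurin and restrain it, and in mammals a shorter RCAN1 transcript starts at an internal promoter that NFAT can drive, so it is often read as a trace of calcineurin activity. In bone, NFATc1 is the master factor of osteoclast formation, and calcineurin and NFAT also act in osteoblasts.

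The promoters of Rcan1, Nfatc4 and Nfat5 are shown because Rcan1 is the textbook target of the pathway and Nfatc4 and Nfat5 were the members that changed most. Each is 300 bases, from 250 bases before the start site to 50 after it, from RefSeq on GRCm38.p6 and written 5′ to 3′ on the gene's strand. Capitals mark 3 motifs searched on both strands, namely the NFAT core GGAAA, the AP-1 site TGANTCA and the cAMP response element TGACGTCA. A core on the opposite strand reads TTTCC here. No match overlapped a match of another motif.
Rcan1 upstream promoter (chr16:92466120-92466419, minus strand): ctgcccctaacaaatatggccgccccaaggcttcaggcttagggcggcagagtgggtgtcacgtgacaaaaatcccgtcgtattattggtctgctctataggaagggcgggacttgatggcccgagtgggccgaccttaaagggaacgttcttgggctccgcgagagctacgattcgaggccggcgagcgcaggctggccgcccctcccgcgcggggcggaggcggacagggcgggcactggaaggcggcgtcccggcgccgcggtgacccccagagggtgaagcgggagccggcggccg
Rcan1 internal promoter (chr16:92400029-92400328, minus strand): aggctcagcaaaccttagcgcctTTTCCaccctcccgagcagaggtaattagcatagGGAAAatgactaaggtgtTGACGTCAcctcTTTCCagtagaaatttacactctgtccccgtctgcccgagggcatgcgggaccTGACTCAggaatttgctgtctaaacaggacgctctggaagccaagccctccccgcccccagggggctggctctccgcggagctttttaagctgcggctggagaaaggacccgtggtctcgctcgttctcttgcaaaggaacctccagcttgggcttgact
Nfatc4 promoter (chr14:55824545-55824844, plus strand): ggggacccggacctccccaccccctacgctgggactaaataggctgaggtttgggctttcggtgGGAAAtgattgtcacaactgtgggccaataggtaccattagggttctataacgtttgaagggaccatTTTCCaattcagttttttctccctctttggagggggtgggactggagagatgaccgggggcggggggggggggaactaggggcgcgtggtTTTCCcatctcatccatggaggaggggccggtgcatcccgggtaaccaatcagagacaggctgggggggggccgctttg
Nfat5 promoter (chr8:107293220-107293519, plus strand): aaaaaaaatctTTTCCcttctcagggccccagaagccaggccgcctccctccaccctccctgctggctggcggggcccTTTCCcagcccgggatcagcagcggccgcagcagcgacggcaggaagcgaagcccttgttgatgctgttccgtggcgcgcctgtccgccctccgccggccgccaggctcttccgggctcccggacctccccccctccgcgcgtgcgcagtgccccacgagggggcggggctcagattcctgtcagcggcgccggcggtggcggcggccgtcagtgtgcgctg

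The 2 Rcan1 start sites lie 66091 bases apart and differ in these letters. The upstream window held none of the 3 motifs. The internal window held 3 NFAT cores, which began 227, 193 and 163 bases before the start site, 1 cAMP response element at 175 bases and 1 AP-1 site at 110 bases. Nfatc4 had 3 NFAT cores, at 186, 119 and 29 bases, and Nfat5 had 2, at 239 and 172 bases. Of the 32851 promoter windows of this length, 61.3% held at least 1 NFAT core and 9.42% held 3 or more, while 7.81% held an AP-1 site and 1.79% a cAMP response element. Among 13 windows found for 8 of the 10 genes, 8 held at least 1 NFAT core, 4 held 3 or more, 2 held an AP-1 site and 1 held a cAMP response element. These are matches of letters, not binding sites. The count table has 1 value per gene, so transcripts from the 2 Rcan1 start sites were not separated.

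Nfatc4, Nfat5 and Nfatc1 fell with verapamil, and the other 7 genes did not pass the test. Levels are given in CPM, counts scaled to library size after TMM correction for composition. Changes are on the log2 scale, verapamil over control, ± the standard error (SE). Each adjusted p is from the quasi-likelihood test of edgeR, Benjamini-Hochberg corrected over all 13366 genes, and a gene was called under 0.05. With 3 of 10 members lower and 0 higher, the count stood beside 16.3% of all tested genes lower, 15.4% higher and 31.7% called in either direction. Verapamil values lay below all control values in 3 members and above them in 0, beside 24.4% and 25.2% of all genes tested, or 49.6% in either direction. By these counts the group as a whole did not stand apart from the other genes. Of all genes called, 48.5% were higher, and 63.7% with scaling by library totals alone. The median log2 fold change was -0.06 over the members and 0.01 over all genes tested. Each member had between 776 and 4943 counts in every library, so none was limited by low depth.

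**Figure D1:**
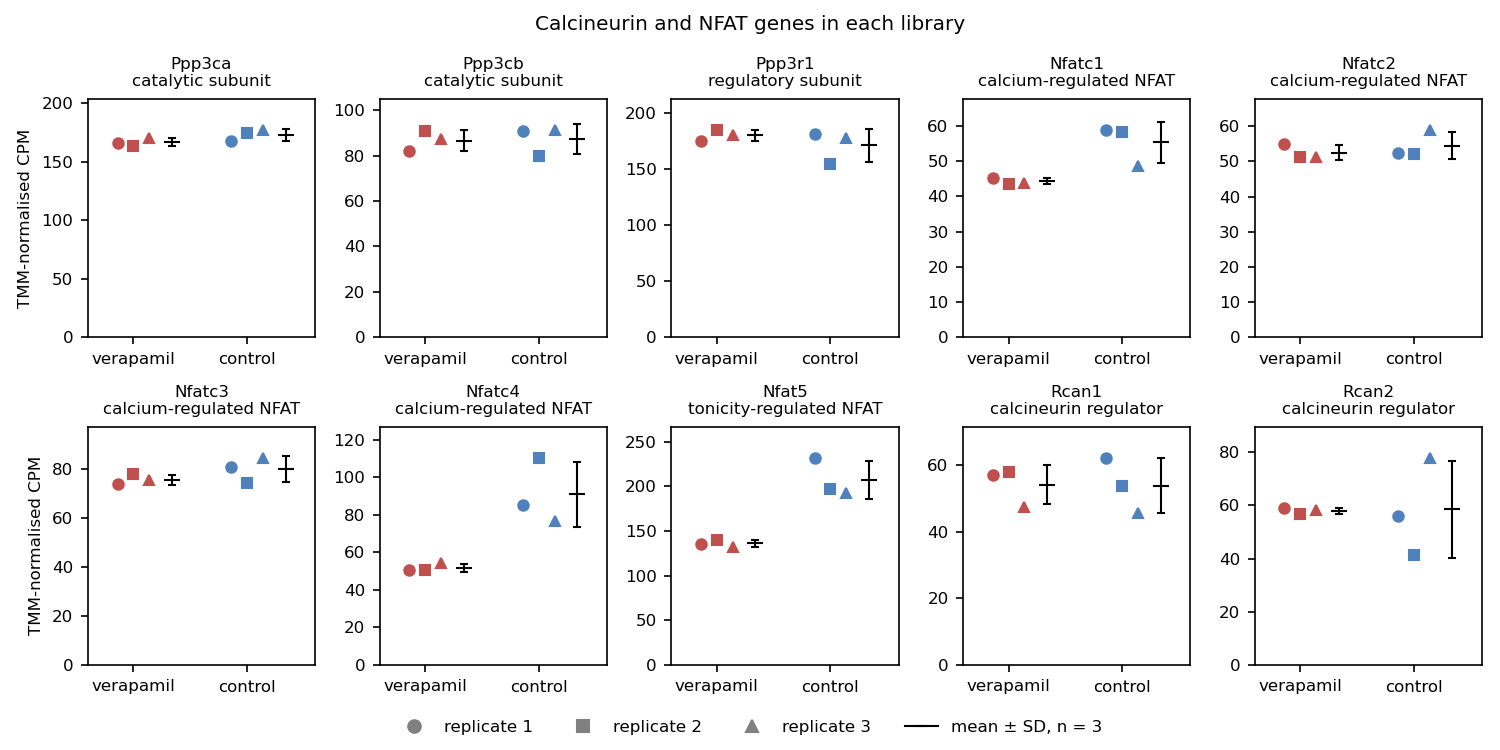
TMM-normalised CPM (vertical axes, from 0) of the 10 genes in the verapamil and control libraries, 1 symbol per replicate, with black bars for the mean ± SD (n = 3). The verapamil values of Nfatc1, Nfatc4 and Nfat5 lie below every control value, and those of the other 7 genes overlap the control values.

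Library totals were 18.2 to 21.7 M counts, and the biological coefficient of variation was 4.44% among verapamil and 12.4% among control libraries. The counts of called genes in each list below stand beside 15.4% of all tested genes higher and 16.3% lower. Osteoblast markers led by Col1a1 and Col1a2 were abundant, and 11 of 12 were lower with verapamil. Their summed level was 14920 to 17260 CPM in verapamil and 36630 to 46850 CPM in control libraries. Macrophage markers, with Lyz2 and Mrc1 the most abundant, were also present, 10 of 14 higher and none lower, and summed to 16960 to 19070 CPM in verapamil and 9508 to 11920 CPM in control libraries. Of 8 osteoclast markers, 4 were tested, of which 2 were higher and 1 lower, and the sums over the list were 323 to 351 CPM in verapamil and 330 to 341 CPM in control libraries. Ctsk, the most abundant, was lower, at 236 ± 10.8 CPM in verapamil and 267.6 ± 3.68 CPM in control libraries. Tnfrsf11a, the next, was higher, at 52.65 ± 2.41 CPM in verapamil and 37.85 ± 3.19 CPM in control libraries. The osteoclast fusion and receptor genes Dcstamp, Ocstamp and Calcr were at or near 0 in every library, at most 0.135 CPM, and Oscar was at most 0.404 CPM. Lymphocyte markers summed to 1.10 to 1.602 CPM in verapamil and 0.674 to 0.721 CPM in control libraries. Cd4 and Cd8a were the highest of them, at most 0.811 and 0.801 CPM, while Cd3d was at most 0.0722 CPM and Ms4a1 at most 0.0470 CPM. Sums for neutrophils were 9.89 to 10.2 CPM in verapamil and 6.54 to 7.39 CPM in control libraries and for endothelial cells 50.7 to 52.3 CPM in verapamil and 59.7 to 62.6 CPM in control libraries. Adipocyte markers, with Cebpa and Fabp4 the most abundant, summed to 474 to 507 CPM in verapamil and 338 to 431 CPM in control libraries. Of 5 tested, 2 were higher and 1 lower, and their mean log2 CPM overlapped (5.10 to 5.35 in verapamil, 4.92 to 5.42 in control libraries). Smooth muscle and pericyte markers summed to 989 to 1080 CPM in verapamil and 1174 to 1556 CPM in control libraries. Of 8 tested, 4 were lower, among them Acta2, the most abundant. Rgs5, the next, went the other way without passing the test, at 73.2 ± 15.9 CPM in verapamil and 35.7 ± 16.2 CPM in control libraries. Hypoxia response genes, of which 10 of 12 were lower, summed to 1772, 1510 and 1696 CPM in verapamil replicates 1, 2 and 3 and to 3868, 5870 and 2338 CPM in control replicates 1, 2 and 3. In bulk cultures, fewer cells of a type and less RNA per cell cannot be told apart, and the part of these shifts in the members' values was not tested.

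None of the subunit genes Ppp3ca, Ppp3cb and Ppp3r1 passed the test. Ppp3ca, which encodes the α catalytic subunit (Entrez 19055, chromosome 3, 136669714 to 136937727 in GRCm38), was at 166, 164 and 170 CPM in verapamil libraries and at 168, 174 and 177 CPM in control libraries. The ranges overlapped, and the log2 fold change was -0.05 ± 0.05 SE (edgeR adjusted p = 0.460), with a 95% interval of -0.17 to 0.06. Ppp3cb, the β catalytic subunit (Entrez 19056, chromosome 14, 20499364 to 20546573), was at 81.9, 90.8 and 87.3 CPM in verapamil libraries and at 90.7, 79.8 and 91.4 CPM in control libraries. The change was -0.01 ± 0.07 SE (95% interval -0.17 to 0.15, edgeR adjusted p = 0.926), a wider interval than that of Ppp3ca. Ppp3r1, the calcium-binding regulatory subunit (Entrez 19058, chromosome 11, 17159298 to 17200380), was at 174.9, 185 and 179.8 CPM in verapamil libraries and at 181, 154 and 177 CPM in control libraries. Control replicate 2 was the low one here, and the change was 0.07 ± 0.07 SE (95% interval -0.09 to 0.23, edgeR adjusted p = 0.474). In fold terms, the 3 intervals together ran from 0.887 to 1.18, so larger changes of these subunits lay outside them. Some exon sequence of Ppp3r1 is shared with Wdr92 on the same strand in GENCODE M21, so reads there cannot be assigned with certainty. Wdr92 was at 26.7 ± 1.72 CPM in verapamil and 29.5 ± 5.38 CPM in control libraries.

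Nfatc4 showed the largest fall among the members. It encodes a calcium-regulated NFAT factor of many non-immune tissues (Entrez 73181, chromosome 14, 55824795 to 55833943) and was at 50.4, 50.4 and 54.0 CPM in verapamil libraries, against 85.3, 110.4 and 76.9 CPM in control libraries. All verapamil values lay below all control values. The log2 fold change was -0.81 ± 0.13 SE (95% interval -1.11 to -0.52, edgeR adjusted p = 0.00317), a fold of 0.568. That placed Nfatc4 at the 4.78th percentile of log2 fold changes over all genes tested. Control replicate 2, which had the highest sum of hypoxia genes, also had the highest Nfatc4. Without this library the fall of Nfatc4 was -0.66 (adjusted p = 4.49e-05). Col1a1 and Acta2, from marker lists, were also highest in control replicate 2, so this was not particular to Nfatc4 and the hypoxia genes.

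Nfat5 fell in the same direction. Its product turns on genes for osmolyte uptake and synthesis under high salt (Entrez 54446, chromosome 8, 107293435 to 107379517). Levels were 136, 139.8 and 133 CPM in verapamil libraries, against 232, 197 and 193 CPM in control libraries. The verapamil libraries lay close together and below every control library. The change was -0.61 ± 0.08 SE on the log2 scale (95% interval -0.78 to -0.43, edgeR adjusted p = 0.00110), a fold of 0.656 and the 7.84th percentile of all genes tested. Here control replicate 1 was the highest, and without it the fall was -0.52 (adjusted p = 0.00488).

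Nfatc1 fell by less, and its call did not hold in every fit with 1 library left out. This factor of osteoclasts, lymphocytes and heart valves (Entrez 18018, chromosome 18, 80606205 to 80713071) was at 45.2, 43.6 and 43.9 CPM in verapamil libraries, against 58.9, 58.4 and 48.7 CPM in control libraries. Control replicate 3 stood closest to the verapamil libraries. The log2 fold change was -0.32 ± 0.08 SE (95% interval -0.51 to -0.14, edgeR adjusted p = 0.0182), a fold of 0.80. The call was lost without control replicate 1 (-0.27, adjusted p = 0.0750). It was also lost without verapamil replicates 1, 2 or 3 (adjusted p = 0.0579, 0.0719 and 0.0644), although the change was about as large, at -0.34, -0.31 and -0.32. The call held without control replicate 2 (-0.29, adjusted p = 0.0170) and without control replicate 3 (-0.41, adjusted p = 0.0011).

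Nfatc2 and Nfatc3 overlapped between the groups. Nfatc2, a main NFAT of lymphocytes (Entrez 18019, chromosome 2, 168476410 to 168601657), was at 54.97, 51.2 and 51.2 CPM in verapamil libraries and at 52.4, 52.2 and 58.9 CPM in control libraries. Its change was -0.06 ± 0.07 SE (95% interval -0.21 to 0.10, edgeR adjusted p = 0.572). Nfatc3, also expressed widely (Entrez 18021, chromosome 8, 106058818 to 106130537), was at 73.8, 77.8 and 75.5 CPM in verapamil libraries and at 81.1, 74.4 and 84.7 CPM in control libraries, a change of -0.08 ± 0.06 SE (95% interval -0.22 to 0.06, edgeR adjusted p = 0.359). An exon of Nfatc3 overlaps Esrp2 on the opposite strand, and the strand setting of the counting is not given in the sources used here. Esrp2 was low, at 5.69 ± 0.719 CPM in verapamil and 5.43 ± 0.435 CPM in control libraries.

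The difference among NFAT genes was set within each library as a ratio of counts to Nfatc3, which needs no scaling between libraries. This comparison was chosen after the values were seen. Nfatc4 counts were 0.682, 0.648 and 0.716 of those of Nfatc3 in verapamil libraries, against 1.05, 1.48 and 0.908 in control libraries. For Nfat5 the ratios were 1.84, 1.80 and 1.76 in verapamil libraries, against 2.86, 2.64 and 2.28 in control libraries. Neither gene's ratios overlapped between the groups, with a two-sided exact permutation p of 0.10 for each, the smallest that 3 against 3 libraries allow. Ratios of Nfatc1 overlapped, at 0.613, 0.560 and 0.582 in verapamil libraries and 0.726, 0.784 and 0.575 in control libraries (exact permutation p = 0.30), as did those of Nfatc2 (exact permutation p = 0.80). No p under 0.05 could be reached in this design.

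**Figure D2:**
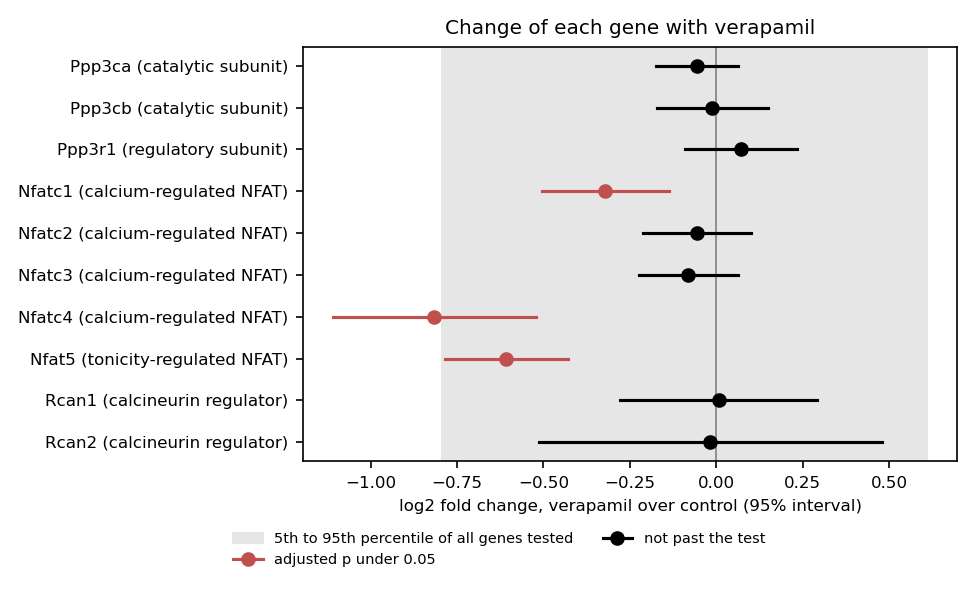
Log2 fold change of verapamil over control (horizontal axis) for each of the 10 genes, with 95% intervals from the edgeR fit, red where the adjusted p was under 0.05; the grey band spans the 5th to the 95th percentile of all 13366 genes tested. Nfatc4 (-0.81), Nfat5 (-0.61) and Nfatc1 (-0.32) lie left of 0, and the intervals of the other 7 genes include 0.

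Rcan1 and Rcan2 did not pass the test, and their intervals were wider than those of the subunits. Rcan1 (Entrez 54720, chromosome 16, 92391951 to 92466169) was at 57.0, 58.0 and 47.3 CPM in verapamil libraries and at 62.2, 53.6 and 45.7 CPM in control libraries. Both groups spanned nearly the same range, and the change was 0.01 ± 0.12 SE (95% interval -0.28 to 0.29, edgeR adjusted p = 0.975), or a fold between 0.825 and 1.22. Leaving out 1 library at a time moved the Rcan1 change between -0.10 and 0.12, so it has no settled direction. Rcan2, a relative known from brain, heart and muscle (Entrez 53901, chromosome 17, 43801352 to 44039516), was at 58.9, 56.7 and 58.2 CPM in verapamil libraries and at 56.1, 41.5 and 77.9 CPM in control libraries. Verapamil libraries sat between the control libraries, with a coefficient of variation of 1.89% in verapamil and 31.4% in control libraries. The Rcan2 change of -0.02 ± 0.21 SE (95% interval -0.51 to 0.48, edgeR adjusted p = 0.962) therefore leaves room for a fold of 0.701 to 1.39 either way. Among the control replicates, Rcan2 was lowest and Nfatc4 highest in replicate 2, where the hypoxia genes summed highest, and Rcan2 was highest and Nfatc4 lowest in replicate 3, where they summed lowest. Nfatc2, Nfatc3 and Ppp3cb were also lowest in control replicate 2 and highest in control replicate 3, so this order was not particular to Rcan2. Whether oxygen supply had a part in the spread of Rcan2 or Nfatc4 was not tested.

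**Figure D3:**
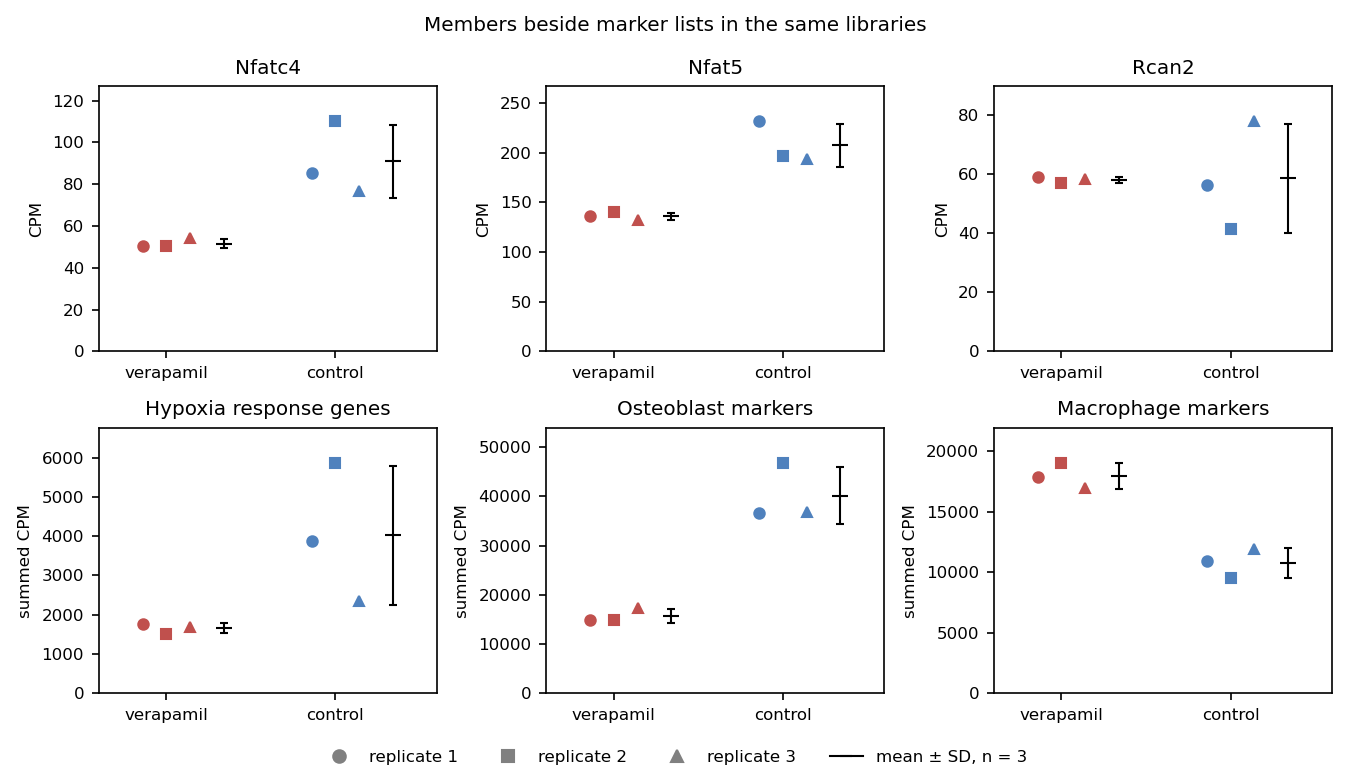
Levels of Nfatc4, Nfat5 and Rcan2 (CPM, top row) and summed CPM of hypoxia response genes, osteoblast markers and macrophage markers (bottom row) in verapamil and control libraries, 1 symbol per replicate and black bars for the mean ± SD (n = 3). Control replicate 2 (squares) is highest for Nfatc4 (110.4 CPM) and hypoxia genes (5870 CPM) and lowest for Rcan2 (41.5 CPM).

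Levels of different genes were compared as CPM per kilobase of the longest coding GENCODE M21 transcript. Among NFAT genes, Nfatc4 was the most abundant per length in both groups, at 13.7 ± 0.558 CPM per kb in verapamil and 24.1 ± 4.62 CPM per kb in control libraries (SD, n = 3). In verapamil libraries Nfatc3 (12.6 ± 0.338), Nfat5 (10.2 ± 0.266), Nfatc1 (9.23 ± 0.179) and Nfatc2 (7.69 ± 0.316 CPM per kb) came next. In control libraries the order was Nfat5 (15.5 ± 1.61), Nfatc3 (13.4 ± 0.869), Nfatc1 (11.5 ± 1.20) and Nfatc2 (7.98 ± 0.560 CPM per kb). No pair of neighbours in either order overlapped across its 3 libraries. With the mean length of coding transcripts, Nfatc4 stayed first, but Nfat5 came before Nfatc3 in verapamil libraries (20.03 and 17.6 CPM per kb). Nfatc2 came before Nfatc1 in verapamil libraries (12.6 and 9.69 CPM per kb). In control libraries the means of Nfatc2 and Nfatc1 were 13.1 and 12.1 CPM per kb, but their values overlapped. Nfatc2 was at 12.55, 12.49 and 14.11 CPM per kb there, and Nfatc1 at 12.88, 12.78 and 10.66 CPM per kb. Only control replicate 3 had Nfatc2 above Nfatc1. Longest transcripts ranged from 3.78 kb for Nfatc4 to 13.4 kb for Nfat5, so this order depends on which isoforms the cells used, which the table does not show.

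Summed over the 5 genes, NFAT mRNA was 53.3, 53.4 and 53.5 CPM per kb in verapamil libraries, against 73.5, 76.2 and 67.7 CPM per kb in control libraries. Nfatc4 made up 25.6% ± 1.01 of this sum in verapamil and 33.1% ± 4.61 in control libraries (SD, n = 3), and Nfat5 made up 19.1% ± 0.513 in verapamil and 21.4% ± 2.17 in control libraries. The share of Nfatc3 was 23.7% ± 0.616 in verapamil and 18.6% ± 2.29 in control libraries. These shares sum to a fixed total, so a lower share of Nfatc4 raises the others.

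**Figure D4:**
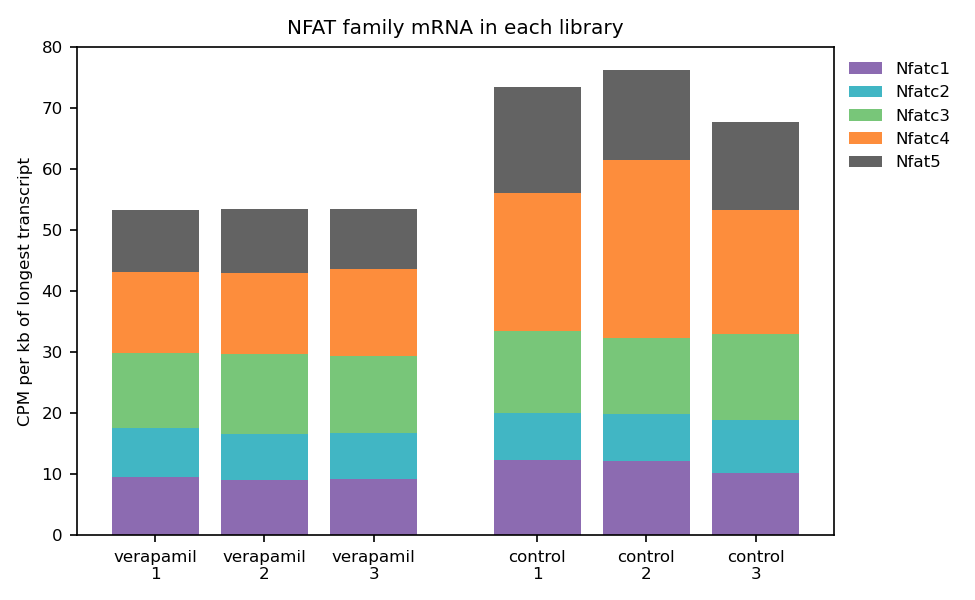
CPM per kb of the longest transcript (vertical axis, from 0) of the 5 NFAT genes, stacked, in the 3 verapamil and the 3 control libraries. The stacks reach 53.3 to 53.5 CPM per kb in verapamil and 67.7 to 76.2 CPM per kb in control libraries, with the Nfatc4 and Nfat5 segments shorter in the verapamil libraries.

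Within calcineurin, the regulatory subunit was the most abundant per length. Ppp3r1 was at 62.9 ± 1.70 CPM per kb in verapamil and 59.8 ± 5.10 CPM per kb in control libraries and Ppp3ca at 35.0 ± 0.731 CPM per kb in verapamil and 36.4 ± 1.03 CPM per kb in control libraries. Ppp3cb was at 22.6 ± 1.17 CPM per kb in verapamil and 22.8 ± 1.70 CPM per kb in control libraries. Ppp3ca therefore held 60.8% ± 1.45 of the summed level of these catalytic genes in verapamil and 61.5% ± 2.03 in control libraries. Rcan1 and Rcan2 were at 23.3 ± 2.55 and 17.5 ± 0.331 CPM per kb in verapamil libraries and at 23.2 ± 3.56 and 17.7 ± 5.54 CPM per kb in control libraries, where their ranges overlapped. With mean transcript lengths Rcan2 lay above Rcan1, so the order of these regulators is not settled.

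Other genes of the pathway were counted in lists written by role. Each list's counts stand beside the same shares of all tested genes, 15.4% higher and 16.3% lower, or 31.7% called in either direction, and nothing particular to a list is read from them. Of 15 tested partners and regulators of calcineurin, 2 rose, 3 fell and 10 did not pass, with a median log2 fold change of -0.12, against 0.01 over all tested genes. Ppp3cc, the third catalytic subunit gene, fell to 8.79 ± 0.292 CPM in verapamil libraries, against 11.8 ± 0.636 CPM in control libraries (-0.42 ± 0.09 SE, edgeR adjusted p = 0.00977), at a level well under those of Ppp3ca and Ppp3cb. Lmcd1, a LIM protein that raises calcineurin signalling in mouse heart, fell by 0.42 on the log2 scale, and Cib1, a calcium-binding protein that anchors calcineurin in cardiac muscle, rose by 0.36. Of 13 kinases and scaffolds that act on NFAT, 1 rose, 5 fell and 7 did not pass, with a median of -0.10, beside 15.4% of all tested genes higher and 16.3% lower. Kinases that return NFAT to the cytoplasm include Dyrk1a, at 56.0 ± 1.51 CPM in verapamil and 67.9 ± 1.90 CPM in control libraries (-0.28 ± 0.05 SE, edgeR adjusted p = 0.00694). Lrrk2, a kinase that restrains NFAT in macrophages, fell by 0.45 and the stress kinase gene Mapk8 fell by 0.29. Mapk8 did not pass without verapamil replicates 2 or 3 (adjusted p = 0.0627 and 0.0647), although its change was about as large, at -0.29 and -0.27. With scaling by library totals it was at -0.21 (adjusted p = 0.0585).

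Factors and proteins outside the NFAT family that calcineurin dephosphorylates formed another list. Of 10 tested, 3 fell, none rose and 7 did not pass, with a median of -0.13, beside 16.3% of all tested genes lower and 15.4% higher. Mef2c, a factor of muscle, bone and macrophages, fell to 36.4 ± 1.87 CPM in verapamil libraries, against 60.1 ± 7.59 CPM in control libraries (-0.72 ± 0.09 SE, edgeR adjusted p = 0.00119). Its relative Mef2d fell by 0.27, and Synpo, which encodes an actin-associated protein, fell by 0.42. Synpo did not pass without verapamil replicates 1, 2 or 3 (adjusted p = 0.0656, 0.0751 and 0.0645), although its change was about as large, at -0.43, -0.41 and -0.42.

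Of 16 known NFAT targets of immune and stromal cells, 8 were tested, of which 4 fell, 1 rose and 3 did not pass, with a median of -0.34, beside 16.3% of all tested genes lower and 15.4% higher. Egr3, an immediate-early factor induced through calcineurin in lymphocytes, was at 15.7 ± 0.612 CPM in verapamil and 34.98 ± 0.362 CPM in control libraries (-1.16 ± 0.06 SE, edgeR adjusted p = 7.08e-05). Nr4a1, an orphan nuclear receptor gene induced by calcium, fell by 0.63. Ptgs2, which encodes cyclooxygenase 2, fell by 1.47, but did not pass without any 1 of control replicates 1 or 2 or verapamil replicates 1, 2 or 3 (-1.55 to -1.16, adjusted p = 0.0873 to 0.142). Interleukin 2, interleukin 4 and interferon γ, the classical T cell targets, were not among the genes tested.

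Of 11 osteoclast targets of NFATc1, 7 were tested, of which 3 fell, 2 rose and 2 did not pass, with a median of -0.08, beside 16.3% of all tested genes lower and 15.4% higher. The integrin gene Itgb3 fell by 0.80 and the kinase gene Src fell by 0.54, while Atp6v0d2, a subunit of the proton pump that macrophages also express, was at 37.97 ± 5.85 CPM in verapamil and 18.8 ± 4.53 CPM in control libraries (1.02 ± 0.19 SE, edgeR adjusted p = 0.00797). Macrophage markers were higher in the same libraries, as given above, and their part in this rise was not tested. Dcstamp, Ocstamp, Oscar and Calcr were too low to be tested.

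Genes linked to tonicity and NFAT5 gave 4 higher, 4 lower and 3 not past the test of 11 tested, with a median of -0.05, beside 15.4% of all tested genes higher and 16.3% lower. Slc6a6, the taurine transporter that NFAT5 induces, was at 485 ± 35.3 CPM in verapamil and 320.4 ± 36.6 CPM in control libraries (0.60 ± 0.10 SE, edgeR adjusted p = 0.00285). Aldose reductase, encoded by Akr1b3, rose by 0.45 and was named after its value was seen. Aqp1, a water channel, fell by 1.78 and Smpd3, a sphingomyelinase that osteoblasts express, fell by 1.33. Smpd3 was placed on the list without a well established tie to NFAT5. Reads of Hspa1a and Hspa1b, a nearly identical gene pair on this list, may have been split between them, so their values are uncertain.

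**Figure D5:**
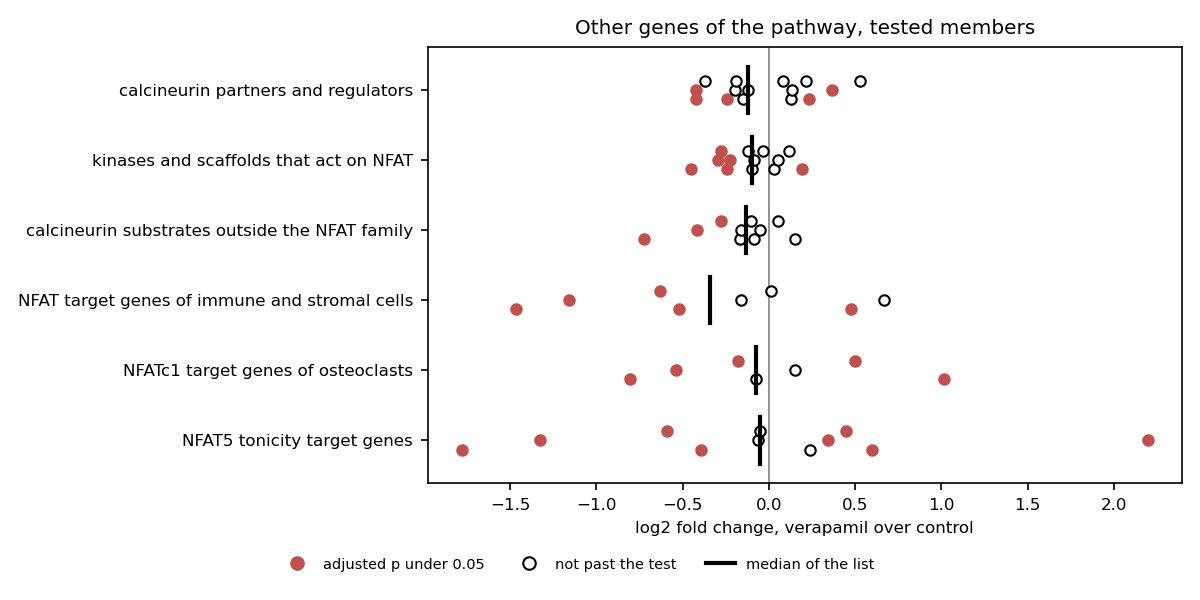
Log2 fold change of verapamil over control (horizontal axis) for the tested genes of 6 pathway lists, red where the adjusted p was under 0.05 and open where it was not, with a black line at each list's median. Medians lie between -0.34 and -0.05, and every list except the calcineurin substrates has called genes on both sides of 0.

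Genes whose levels followed Rcan1 or Nfatc1 most closely over the 6 libraries were taken from 10592 genes that averaged 5 CPM or more. Predicted genes, with Gm, Rik or LOC in their names, were left out of these 10592. For Rcan1, the 5 closest were Zfp24 (Pearson r = 0.97), Erich1 (0.96), Fbxo42 (0.96), Exoc6b (0.96) and Zbtb24 (0.93), and 4 genes in all had r above 0.95. None of the 5 passed the test between groups. For Nfatc1, the 5 closest were Wsb1, Cers6, Rftn2, Trmt10c and Dip2c, with r of 0.99 to 1.0, and 383 genes had r above 0.95. These points share their libraries, depth and group difference, so the values describe likeness over 6 libraries and nothing more.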

How the data were processed

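The table held 1 estimated count per gene and library, deposited by the authors with no scaling to depth or length. Of its values, 67.7% were not whole numbers. The build is GRCm38 (mm10), per the submitters' processing notes, and the aligner, counting tool, annotation and strand setting were not given in the sources used here. Counts were rounded, filtered with filterByExpr (minimum count 10, minimum total 15) and compared with edgeR 4.0.16 in R 4.3.3 (TMM, robust quasi-likelihood fit, all 6 libraries). SE was taken as |log2 fold change| / √F, and intervals use the t distribution of that fit. Log2 CPM for likeness had a prior count of 2. Replicates differed by more than sampling noise (chi-square per degree of freedom of 3.59 to 50.2). Tested on simulated data for verapamil against control (13366 genes), it called 65% of genes set to 1.5-fold, 86.4% of genes set to 2-fold, and 9.38% of its calls were false. That false share lay above the threshold of 0.05. The simulation changed 100 genes per fold and gave both groups the same spread, whereas 31.7% of genes were called in the data. These rates may therefore not hold for the real comparison. Members and lists were chosen with earlier results of these data known. All 10 members are named, then up to 3 called genes of each pathway list with the largest change and a mean of 1 CPM or more, and the 2 most abundant genes of a marker list where a result turned on it. For Rcan1 and Nfatc1, the 5 genes with the highest Pearson r were named. Alternatives used limma 3.58.1 and DESeq2 1.42.0. Lengths came from GENCODE M21 and promoters from RefSeq on GRCm38.p6, both matched on gene symbol. Coordinates came from RefSeq on GRCm38.p6, matched on Entrez ID.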

Additional observations from a re-analysis of the deposited data

How the results depend on the processing

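Nfatc4 and Nfat5 stayed called and lower under all 15 alternatives, at -0.92 to -0.66 and -0.66 to -0.52 on the log2 scale, and Nfatc1 stayed lower (-0.41 to -0.24) and called under 11. The members called lower numbered 3, or 2 where Nfatc1 was not called, as given above. None was called higher under any alternative. Members near 0 changed sign without a call. With library totals alone, Ppp3ca was at 0.0253, Ppp3cb at 0.0664, Nfatc2 at 0.0225 and Rcan2 at 0.0540, a setting that moved the median of all genes by 0.08. Ppp3cb was at 0.0041 with upper quartile factors, and Rcan2 at 0.0259 by limma-voom. With each library left out in turn, Ppp3cb ran from -0.0767 to 0.0232, Ppp3r1 from -0.0023 to 0.12, Nfatc2 from -0.0948 to 0.00096, Rcan1 from -0.10 to 0.12 and Rcan2 from -0.22 to 0.24. Over all genes, 2055 were higher, 1010 to 2452 with 1 library left out and 2829 with library totals alone, and 2180 were lower, 1222 to 2590 with 1 library left out and 1615 with library totals alone. Without verapamil replicates 1, 2 and 3 in turn, 1027, 1010 and 1232 genes were higher and 1222, 1226 and 1393 lower, and without control replicate 1, 1216 were higher; the cause was not tested. The pathway lists held 85 genes, and the number tested in each list is given above. Of these genes 10 were higher and 22 lower, beside 15.4% of all tested genes higher and 16.3% lower. With 1 library left out they numbered 6 to 11 higher and 14 to 25 lower, both lowest without verapamil replicate 2. Same-numbered libraries did not deviate together (correlations of 0.01, -0.17 and -0.13), so no pairing by number was visible. With 3 libraries per group, a pairing hidden by differences between single libraries would not be seen this way. With the replicate number as a block, 1364 genes were higher, Rcan2 was at 0.0280, Nfatc1, Nfatc4 and Nfat5 stayed called, and Mapk8 did not pass (adjusted p = 0.0555). Ptgs2 did not pass without the low-count filter (adjusted p = 0.0867) or by limma-voom (adjusted p = 0.0634). With mean transcript lengths Nfat5 made up 23.8% of NFAT CPM per kb in verapamil and 26.05% in control libraries.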
